A study of Mus musculus with 24 samples.

Results

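The 10 genes described here encode ligand-activated receptors and stress sensors that are known as regulators of drug efflux and drug metabolism: Ahr, Arnt, Nr1i2, Nr1i3, Nr1h2, Nr1h3, Ppard, Rxra, Nfe2l2 and Vdr. They were chosen by gene symbol from the 53465 genes of the count table, and each symbol matched 1 gene. In the study, endothelial cells were sorted by CD31 from the brains of C57BL/6J mice of both sexes held in 12-h light and 12-h dark, and their RNA was sequenced, 1 library per mouse. Controls carried the Bmal1fl/fl allele alone (12 mice), and mutants were Bmal1fl/fl; Tie2cre (12 mice), so that both genotypes had the floxed allele of Bmal1, the clock gene listed as Arntl. Each genotype was collected at zeitgeber time (ZT, hours after lights on) 2, 6, 10, 14, 18 and 22, with 2 mice per time point. No drug was given and the sources used here state no age. Tie2cre is driven by the Tek promoter, which is active in endothelium and also in blood cell lineages, so the deletion need not be confined to the brain vessels. Each library came from 10000 to 20000 sorted cells.

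AHR is a cytoplasmic receptor for planar aromatic compounds that enters the nucleus, pairs with ARNT and turns on genes of detoxification. PXR (Nr1i2), CAR (Nr1i3), the liver X receptors (Nr1h2 and Nr1h3), PPAR delta (Ppard) and the vitamin D receptor (Vdr) each bind DNA together with a retinoid X receptor such as RXRA. NRF2 (Nfe2l2) is held in the cytoplasm by KEAP1 and is released by oxidants and electrophiles. In brain capillaries several of these proteins are known to control ABC efflux pumps such as P-glycoprotein, the product of Abcb1a in mice, and this is why their transcript levels and their dependence on the clock are of interest.

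All 10 are protein-coding genes of GRCm38, and reads on their exons were counted. The receptor pair of aromatic compounds lies in 2 places, Ahr at chr12:35497974-35535038 (minus strand) and Arnt at chr3:95434388-95497240 (plus strand). The xenobiotic and vitamin D receptors are Nr1i2 at chr16:38248323-38294824 (minus), Nr1i3 at chr1:171213970-171220701 (plus) and Vdr at chr15:97854425-97910630 (minus). The liver X receptors are Nr1h2 at chr7:44549616-44553951 (minus) and Nr1h3 at chr2:91184061-91202834 (minus). The remaining genes are Ppard at chr17:28232700-28301474 (plus), Rxra at chr2:27676440-27762957 (plus) and Nfe2l2 at chr2:75675513-75704641 (minus). Ahr overlaps AC159635.2 and Nr1i3 overlaps Tomm40l on the opposite strand. Arnt overlaps Gm42672, Nfe2l2 overlaps Gm24996 and Nr1h3 overlaps Gm13783 on the same strand, and Nr1h3 also overlaps Gm23390 on the opposite one. How reads in these overlaps were divided was not tested, and whether the counting used strand is not given in the sources used here.

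All libraries carried abundant endothelial transcripts. The values are whole-number reads that the authors had resampled to similar totals, and the totals ran from 6136404 to 6648311 per library. The 8 libraries of ZT6 and ZT18 stood apart from the other 16, in both genotypes. Their summed level of 10 microglial genes was 235 to 420 RPM (reads-per-million of the library's total) against 2010 to 5470 in the others, and their summed level of 10 endothelial genes was 18400 to 19800 against 12000 to 17100. Mitochondrial transcripts made up 2.68 to 3.90% of reads there and 5.78 to 17.4% elsewhere. The time of day and this difference in makeup cannot be told apart for those 2 time points, and the genotype differences in level are therefore also given without them. In sorted but mixed samples such as these, fewer cells of a type and less RNA per cell cannot be told apart either. In the labels, the library numbers of the ZT6 and ZT18 libraries are consecutive. Those of the first ZT2 control and of both ZT14 mutants form a separate, lower run, and what the numbers stand for is not stated.

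The targeted gene was measured first. Its reads in the lower and the higher of the 2 control mice were 439 to 466 (ZT2), 57 to 99 (ZT6), 1 to 22 (ZT10), 13 to 15 (ZT14), 261 to 267 (ZT18) and 234 to 468 (ZT22). In mutants it stayed between 81 and 354 reads at all times. The daily wave of the controls was thus not seen in the mutants (edgeR test of the rhythm difference, unadjusted p = 9.105e-06, n = 24, adjusted p = 0.141 over 15493 genes). The total was not lower in mutants, where the mean was 226 ± 74.3 reads (SD, n = 12) against 195 ± 186 in controls, and since only part of the gene is floxed, its total count does not check the deletion.

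Of the 10 members, 7 had enough reads to be tested (at least 5 reads in at least 6 control or 6 mutant libraries), and 3 did not. Per kilobase of exon in the 12 control libraries, the most abundant was Nfe2l2, with 172 ± 20.7 reads per kilobase (SD, n = 12). Nr1h2 followed at 165 ± 31.6, and Nfe2l2 was higher than Nr1h2 in only 7 of 12 mice, so the order of these 2 genes was not resolved. Arnt came next at 77.7 ± 11.4 reads per kilobase, lower than Nr1h2 in 12 of 12 mice with ranges that did not overlap. Ppard had 65.9 ± 16.6 and Rxra 50.1 ± 10.2 reads per kilobase, and each neighbour in the order Arnt, Ppard, Rxra was the higher in 9 of 12 mice. Ahr had 27.0 ± 15.0 and Nr1h3 21.1 ± 10.3 reads per kilobase. Rxra was higher than Ahr in 11 of 12 mice, and Ahr was higher than Nr1h3 in 7 of 12 mice. The lowest tested members were therefore near the middle of all genes: Nr1h3 lay above 44.8% and Ahr above 51.2% of 15481 tested genes with a known exon length, while Nr1h2 and Nfe2l2 lay above 90.8% and 91.3%. In mutants the same 7 genes were ahead of the same 3, the means of Nr1h2 (172 ± 23.8) and Nfe2l2 (171 ± 25.8) were nearly equal, and those of Nr1h3 (27.1 ± 11.1) and Ahr (26.6 ± 10.5) were too.

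**Figure D1:**
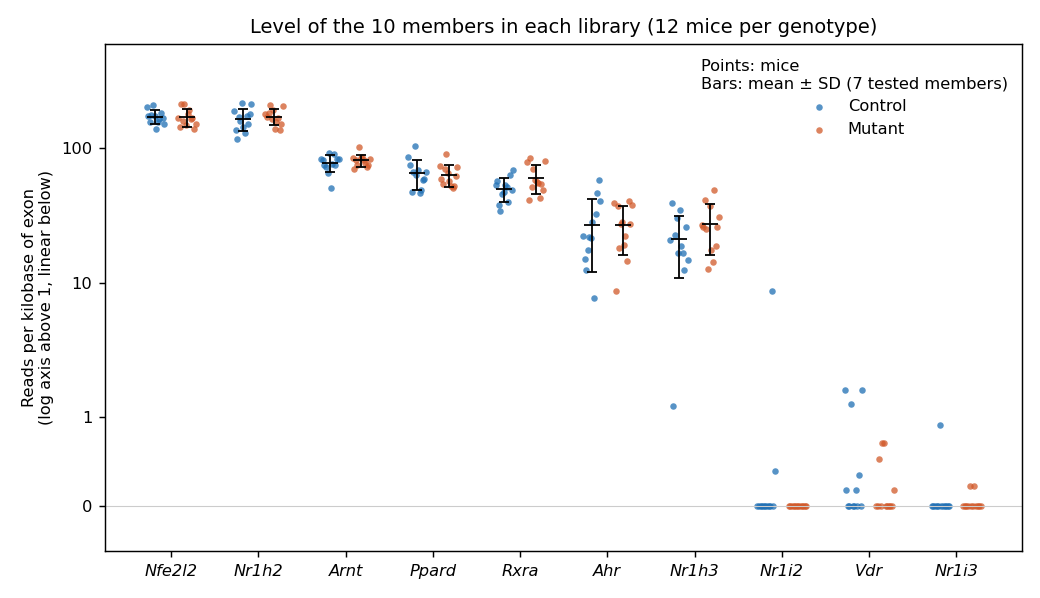
Reads per kilobase of exon of the 10 members in each library, on an axis that is logarithmic above 1 and linear below. Each point is 1 mouse (12 control and 12 mutant), bars give the mean and SD for the 7 tested members, and Nr1i2, Vdr and Nr1i3 sit at or near 0 in nearly every library of both genotypes.

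The 3 untested members had few or no reads in the sorted cells. Nr1i2 had 22 reads in 1 control library at ZT2, 1 read in 1 at ZT6 and 0 in the other 10 controls, and it had 0 reads in 12 of 12 mutants. Zero in 75394046 mutant reads allows a level of up to 0.0398 RPM (3 counts over the group, counting error only). Nr1i3 had 4 reads in 1 control at ZT18, 1 read in 1 mutant at ZT18 and in 1 mutant at ZT22, and 0 elsewhere. Vdr had 29 reads in all controls together, from 0 to 9 per library, and 12 in all mutants, from 0 to 4 per library. At this depth, differences between genotypes or times could not be judged for these 3 genes.

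The start regions of 9 members were found in a RefSeq promoter table (GRCm38.p6, 250 bases before to 50 after the start), with 11 entries because Rxra and Nr1h3 have 2 each, and Ahr was not matched. CG dinucleotides, which mark the CpG-rich type of promoter that is common in broadly expressed genes, were counted in each. The windows of the 2 most abundant members and of the 3 near-absent ones are shown because they sit at the ends of the order of levels, and capitals mark every CG:
Nr1h2, chr7:44553916-44554215, minus strand: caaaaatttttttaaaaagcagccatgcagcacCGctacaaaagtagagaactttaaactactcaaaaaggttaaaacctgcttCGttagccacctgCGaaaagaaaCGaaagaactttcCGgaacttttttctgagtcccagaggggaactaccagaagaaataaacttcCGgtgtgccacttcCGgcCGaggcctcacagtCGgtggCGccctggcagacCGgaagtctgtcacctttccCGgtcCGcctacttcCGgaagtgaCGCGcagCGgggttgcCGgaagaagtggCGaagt
Nfe2l2, chr2:75704614-75704913, minus strand: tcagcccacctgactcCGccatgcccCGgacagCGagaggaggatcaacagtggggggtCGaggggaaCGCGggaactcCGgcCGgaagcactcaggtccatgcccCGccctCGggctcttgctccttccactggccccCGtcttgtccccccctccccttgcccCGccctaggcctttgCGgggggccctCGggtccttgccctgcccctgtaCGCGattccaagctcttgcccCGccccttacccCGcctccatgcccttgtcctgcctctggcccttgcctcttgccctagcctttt
Vdr, chr15:97908247-97908546, minus strand: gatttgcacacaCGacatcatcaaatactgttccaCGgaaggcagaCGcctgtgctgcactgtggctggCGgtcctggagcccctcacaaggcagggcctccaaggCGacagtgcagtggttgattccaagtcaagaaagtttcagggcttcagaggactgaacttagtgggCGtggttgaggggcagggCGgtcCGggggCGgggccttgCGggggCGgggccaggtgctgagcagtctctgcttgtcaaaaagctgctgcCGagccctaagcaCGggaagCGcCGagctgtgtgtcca
Nr1i3, chr1:171213720-171214019, plus strand: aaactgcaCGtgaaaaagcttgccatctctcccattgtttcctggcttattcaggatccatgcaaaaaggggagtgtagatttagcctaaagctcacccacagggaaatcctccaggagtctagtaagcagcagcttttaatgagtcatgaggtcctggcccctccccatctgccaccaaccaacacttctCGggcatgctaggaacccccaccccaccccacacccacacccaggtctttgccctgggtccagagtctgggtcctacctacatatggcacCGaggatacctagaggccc
Nr1i2, chr16:38294775-38295074, minus strand: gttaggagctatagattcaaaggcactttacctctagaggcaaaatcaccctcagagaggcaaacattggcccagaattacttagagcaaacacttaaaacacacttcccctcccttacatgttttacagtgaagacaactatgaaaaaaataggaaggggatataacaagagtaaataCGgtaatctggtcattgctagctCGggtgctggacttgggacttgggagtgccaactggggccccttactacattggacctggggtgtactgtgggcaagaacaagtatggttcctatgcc
Nr1h2 held 19 and Nfe2l2 18 CG, as many or more than 73.5% and 71.9% of the 32851 promoters in the table. Nr1i2 held 2 and Nr1i3 3, counts that 23.3% and 31.4% of promoters do not exceed. Vdr, with 15 CG, was near-absent all the same, so CG content did not sort the members by level. Arnt held 19, Ppard 27, Nr1h3 8 and 10, and Rxra 55 in one entry and 1 in the other.

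Letters of known response elements were also searched for on both strands of these windows. The E-box CACGTG bound by BMAL1 with CLOCK, present in 7.15% of all promoters, occurred in 1 member, Nr1i3, 244 bases before the start. The GCGTG core of the element bound by AHR with ARNT is in 32.4% of promoters and occurred in Arnt, Ppard and Vdr. The TGACNNNGC core of the element bound by NRF2 is in 12.4% of promoters and occurred in Nfe2l2 itself, 240 bases before the start, in Ppard, and at 2 places in Arnt. The AGGTCA hexamer read by nuclear receptors is in 16.3% of promoters and occurred in 1 entry of Rxra. The D-box TTATGTAA, read by clock output factors, is in 0.938% of promoters and occurred in 0 members, and the GC box GGGCGG is in 35.7% and occurred in 4, namely Rxra, Nfe2l2, Vdr and Ppard. None of these 6 motifs contains another. A match is only a run of letters, and a missing match says only that the letters are not in this window.

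The comparison of genotypes asked whether loss of Bmal1 in Tie2-expressing cells changed the level of these regulators. No tested member was called: 0 of 7 passed an adjusted p of 0.05 in edgeR's quasi-likelihood test, with 1 at an unadjusted p below 0.05, against 0.271% of all 15493 tested genes called and 6.95% at the unadjusted p. DESeq2 likewise called 0 of the 6 members to which it gave an adjusted p, and gave none to Nr1h3. The median log2 difference, mutant minus control, was 0.07 over the 7 members and 0.00 over all genes. Without the ZT6 and ZT18 libraries the log2 differences were 0.21 for Ahr, 0.04 for Arnt, 0.13 for Nr1h2, 0.42 for Nr1h3, -0.09 for Ppard, 0.24 for Rxra and 0.02 for Nfe2l2, with adjusted p-values of 0.940 to 0.993. The i5 index of the library barcodes was unevenly spread over the genotypes, with 8 controls and 4 mutants on one index and 4 controls and 8 mutants on the other, and all 8 mutants outside ZT6 and ZT18 shared an index. At ZT2 and ZT10 the index separated controls from mutants completely, and at each other time all mice shared an index. With time as a term, index-adjusted genotype differences therefore rest on ZT6, ZT14, ZT18 and ZT22 only. With the index as a covariate the log2 differences were 0.19 for Ahr, 0.15 for Arnt, 0.08 for Nr1h2, 0.31 for Nr1h3, 0.00 for Ppard, 0.385 for Rxra and 0.055 for Nfe2l2, with adjusted p-values of 0.5995 to 0.9999.

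The aryl hydrocarbon receptor and its partner differed between genotypes by less than the spread between mice. Ahr had 47 to 360 reads in controls (median 135.5) and 53 to 249 in mutants (median 167.5), with a log2 difference of 0.11 ± 0.23 (SE, adjusted p = 0.974) and a 95% interval of 0.78-fold to 1.49-fold. Arnt had 403 to 738 reads in controls and 560 to 816 in mutants, with a log2 difference of 0.07 ± 0.09 (adjusted p = 0.939) and an interval of 0.927-fold to 1.18-fold. Arnt exceeded Ahr per kilobase in 12 of 12 controls, by 2.88 times in the means, and in 12 of 12 mutants, by 3.05 times. Within a mouse the ratio of Arnt to Ahr ran from 1.42 to 9.96 in controls and from 1.80 to 8.13 in mutants, so that Arnt was the higher in every mouse but by a ratio that varied. The related Arnt2 was lower than Arnt in 12 of 12 mice of each genotype.

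Among the receptors of oxysterols, LXR beta (Nr1h2) outweighed LXR alpha (Nr1h3) in every mouse. The ratio per kilobase was 7.83 in the control means and 6.34 in the mutant means. Nr1h2 had 394 to 729 reads in controls and 462 to 703 in mutants, a log2 difference of 0.06 ± 0.09 (SE, adjusted p = 0.948) with an interval of 0.921-fold to 1.19-fold. Nr1h3 had 3 to 98 reads in controls (median 49.5) and 32 to 124 in mutants (median 65.0). Its log2 difference of 0.39 ± 0.32 (adjusted p = 0.880) was the largest among the members and the least certain, with an interval from 0.826-fold to 2.07-fold. It was 0.22 without the control library of ZT14 that held only 3 reads, the lowest count of any tested member. Other single libraries moved it too, to 0.23 without the first mutant of ZT2 and to 0.505 without the first control of ZT22.

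Rxra, the shared partner of the nuclear receptors, was the member with the smallest p. In the lower and the higher of the 2 control mice its reads were 217 to 343 (ZT2), 266 to 379 (ZT6), 291 to 314 (ZT10), 188 to 205 (ZT14), 250 to 260 (ZT18) and 283 to 290 (ZT22). In mutants they were 234 to 298 (ZT2), 269 to 442 (ZT6), 224 to 436 (ZT10), 280 to 462 (ZT14), 319 to 386 (ZT18) and 300 to 309 (ZT22). Both mutant mice lay above both control mice at 3 of 6 time points and below them at 0, after scaling, while the genotypes overlapped as wholes (188 to 379 against 224 to 462). The log2 difference was 0.27 ± 0.13 (SE, unadjusted p = 0.0441, adjusted p = 0.697), with a 95% interval of 1.01-fold to 1.45-fold, and it did not pass the correction. It fell to 0.198 without the first mutant of ZT14, which held the 462 reads, and rose to 0.335 without the second control of ZT2. The means were 289 against 354 reads within ZT6 and ZT18, and 266 against 318 in the other libraries. Of 12 genes known to respond to cell isolation, such as Fos and Jun, 8 were also higher in mutants at an unadjusted p below 0.05 (3.78% of all genes were) and 0 at the adjusted p in edgeR, and their summed level was 3390 to 12500 RPM in controls and 4380 to 13500 in mutants. Their part in the Rxra values was not tested. Rxrb, which can replace RXRA, had a log2 difference of -0.03 ± 0.13 (adjusted p = 0.992).

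Ppard, a sensor of fatty acids, and Nfe2l2 had the smallest fitted differences. Ppard had 351 to 777 reads in controls and 382 to 681 in mutants (log2 difference -0.05 ± 0.10, SE, adjusted p = 0.973, interval 0.841-fold to 1.11-fold). Nfe2l2 had 527 to 799 and 528 to 818 reads (log2 difference -0.01 ± 0.09, adjusted p = 0.994, interval 0.880-fold to 1.12-fold). Keap1, which holds NRF2 in check, had a mean of 289 ± 68.5 reads in controls and 290 ± 52.6 in mutants (SD, n = 12 each). The intervals of Nfe2l2, Ppard, Arnt and Nr1h2 together spanned 0.841-fold to 1.19-fold.

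**Figure D2:**
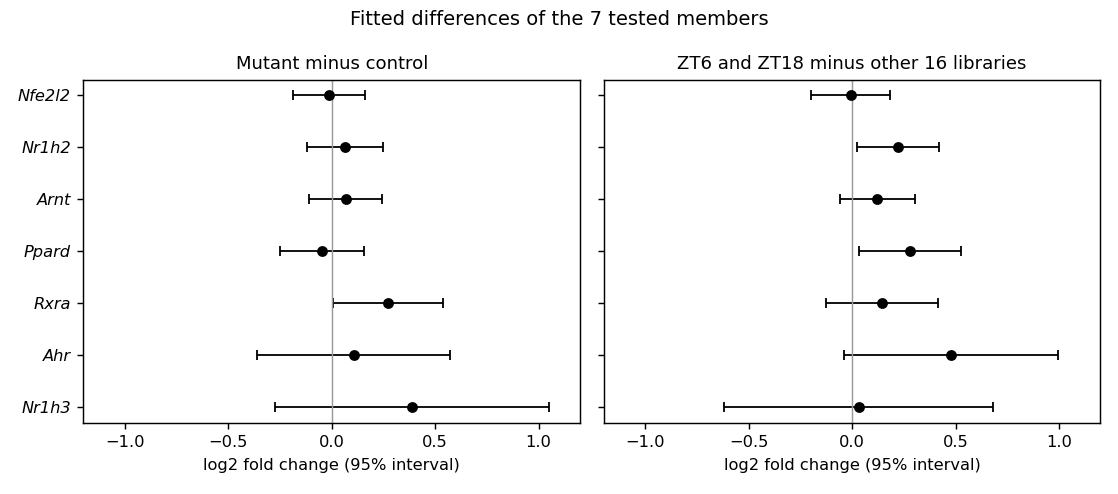
Fitted log2 fold changes of the 7 tested members (points) with 95% intervals (bars), for mutant minus control on the left and for the ZT6 and ZT18 libraries minus the other 16 on the right. Rxra is the only member whose genotype interval lies above 0, and the interval of Nr1h3 is the widest.

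Lists of partners, target genes and efflux pumps were read in the same fit. Of 20 partners and repressors, 17 were tested and 0 were called, with a median log2 difference of 0.03. The smallest p belonged to the coactivator Ncoa3 (log2 difference 0.15 ± 0.09, adjusted p = 0.816) and to Ppara (0.67 ± 0.46, adjusted p = 0.839), and the most abundant was Hsp90ab1, the chaperone that holds AHR in the cytoplasm (0.07 ± 0.08, adjusted p = 0.937). Of 7 AHR targets only Cyp1b1 and Tiparp were tested, and neither was called (-0.11 ± 0.39 and 0.04 ± 0.16). Cyp1a1, the classic gene induced through AHR, was among the 5 with too few reads. All 12 NRF2 targets were tested and 0 were called (median 0.01). Me1, malic enzyme, had the smallest p among them (-0.56 ± 0.24, unadjusted p = 0.0253, adjusted p = 0.608), followed by Gclm, the modifier subunit of glutathione synthesis (0.22 ± 0.12, adjusted p = 0.764), and Prdx1 was the most abundant (0.04 ± 0.10, adjusted p = 0.979). Of 8 PPAR delta targets, 6 were tested and 0 called (median -0.17), among them Cpt1a, the carnitine transferase of fatty acid import (-0.15 ± 0.08, adjusted p = 0.774), and Plin2 of lipid droplets (-0.21 ± 0.14, adjusted p = 0.822). Of 9 targets of PXR, CAR and VDR only Por, the electron donor of cytochromes P450, was tested (-0.12 ± 0.08, adjusted p = 0.855), and the cytochrome genes themselves had too few reads. Of 9 efflux pumps 8 were tested and 0 called, with Abcc6 (-0.21 ± 0.11, adjusted p = 0.748) and Abcc5 (0.16 ± 0.09, adjusted p = 0.775) first by p and Abcb1a most abundant (0.04 ± 0.06, adjusted p = 0.961). Each of these adjusted p-values comes from edgeR's fit over 15493 genes, and errors are SE.

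Apoe was the exception, 1 of 9 tested LXR targets. Apolipoprotein E carries cholesterol between cells. It had 3957 to 16081 reads in controls (median 7728.5) and 3785 to 9920 in mutants (median 5830). The groups overlapped widely, and the log2 difference was -0.43 ± 0.10 (SE, edgeR adjusted p = 0.0451, against 0.116% of all genes called lower). Within the 16 libraries outside ZT6 and ZT18 it was 7256 to 16081 in controls and 5365 to 9920 in mutants (-0.58, adjusted p = 0.0393), and within ZT6 and ZT18 it was 3957 to 5316 against 3785 to 4401. The call was lost when any of 17 of the 24 libraries was left out (log2 differences from -0.47 to -0.37) and with the i5 index as a covariate (log2 difference -0.39, adjusted p = 0.347). The fit with the index draws the genotype difference only from ZT6, ZT14, ZT18 and ZT22. Astrocytes are a main source of Apoe in brain, and 2 of 8 astrocyte genes and 2 of 6 oligodendrocyte genes were also lower in mutants at an unadjusted p below 0.05 (3.18% of all genes were), 0 of each at the adjusted p, with medians of -0.18 and -0.37. The summed astrocyte level was 806 to 2950 RPM in controls and 759 to 3350 in mutants, and its part in the Apoe difference was not tested. The other LXR targets included Abcg1, a cholesterol exporter, with 182 to 381 reads in controls and 277 to 559 in mutants (0.28 ± 0.11, unadjusted p = 0.0153, adjusted p = 0.546).

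**Figure D3:**
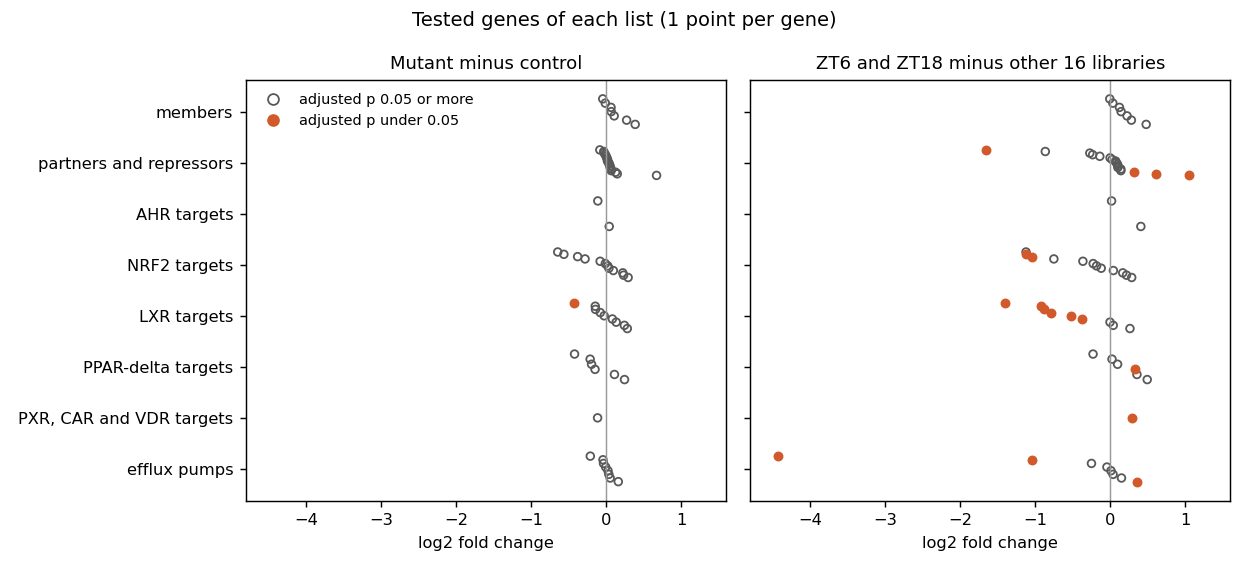
Fitted log2 fold changes of every tested gene in each list (1 point per gene, filled where the adjusted p is under 0.05), for mutant minus control on the left and ZT6 and ZT18 minus the other 16 libraries on the right. Apoe is the only filled point on the left, and no member is filled in either panel.

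The second question was whether any of these regulators followed the time of day in a clock-dependent manner. With meta2d, which combines JTK_CYCLE and a Lomb-Scargle periodogram, 0 of 7 members had a 24-h rhythm in controls at the study's threshold of q below 0.6, which 0.31% of genes passed, and 0 of 7 in mutants, where 0.0387% passed. At an unadjusted p below 0.05 meta2d called 0 of 7 in either genotype, against 2.43% and 2.27% of genes. Arntl itself, with a fitted relative amplitude of 117% in controls, passed only narrowly (meta2d p = 0.00165, q = 0.589, n = 12). Weaker rhythms could thus be missed, and the absence of a call does not show that a member had none. The smallest p in controls was that of Ahr (p = 0.112, q = 1.00, n = 12), followed by Rxra (p = 0.4996), and the other 5 were at 0.992 or above. In mutants the smallest was that of Nr1h2 (p = 0.240, n = 12), followed by Nfe2l2 (p = 0.595).

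Ahr was the one member for which the tests differed. In the lower and the higher of the 2 control mice its reads were 201 to 285 (ZT2), 250 to 360 (ZT6), 92 to 136 (ZT10), 76 to 107 (ZT14), 132 to 135 (ZT18) and 47 to 173 (ZT22). The 4 control mice of ZT2 and ZT6 (201 to 360) lay above all 8 of ZT10 to ZT22 (47 to 173), a split that was noticed after the values were seen. In mutants they were 90 to 249 (ZT2), 168 to 233 (ZT6), 53 to 240 (ZT10), 111 to 231 (ZT14), 167 to 173 (ZT18) and 118 to 137 (ZT22), and the same times overlapped (90 to 249 against 53 to 240). The fitted cosine had a peak at ZT4.2 and a relative amplitude of 56.2% in controls, and 8.75% in mutants. An edgeR cosinor gave p = 0.0172 in controls (n = 12, adjusted p = 0.914), where 4.43% of all genes had p below 0.05, and p = 0.859 in mutants, where 4.16% did. With the library set as a covariate the control p of Ahr was 0.00486 (n = 12) and its adjusted p 0.375, which is below the study's q of 0.6, as 3.28% of all genes were under that setting. Leaving out 1 control mouse at a time moved the p of the cosinor without that covariate between 0.00139 and 0.0627, and it was above 0.05 only without the first ZT6 mouse. The meta2d p of 0.112 moved between 0.0135 and 0.301 in the same way, and it was below 0.05 only without the second ZT22 mouse (q = 1.00). The difference in rhythm between genotypes did not pass (edgeR p = 0.170, n = 24, adjusted p = 1.00). It was at p = 0.0253 without the filter on low reads (n = 24, adjusted p = 0.688) and at 0.105 with the library set as a covariate. With the i5 index as a covariate the p of this difference was 0.240, and over 31 alternatives it ran from 0.0253 to 0.325. The ZT6 mice, which held the highest control count of Ahr, belong to the library set that stands apart in makeup, and the rhythm tests were not run without ZT6 and ZT18. Among controls, the mice of ZT14 and ZT22 shared an i5 index, and the mice of all remaining times shared the other index. The rhythm tests within controls were not run with the index as a covariate.

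No other member passed that test either. Arnt had p = 0.166 and Rxra p = 0.181 in the edgeR test of the rhythm difference (n = 24), with 0 of 7 members at an unadjusted p below 0.05 and 4.26% of all genes there. After adjustment 0.0% of the 15493 genes were called in edgeR (660 at an unadjusted p below 0.05). DESeq2 called 1 gene, which was no member. Peak times differed between the members of the set: in controls the fitted cosines of Ahr and Rxra both peaked at ZT4.2, those of Nr1h2 and Arnt at ZT6.7 and ZT7.7, and those of Nfe2l2, Ppard and Nr1h3 between ZT13.0 and ZT14.0, with relative amplitudes of 0.942 to 15.9% for all but Ahr. At such amplitudes and p-values these peaks describe the fit only.

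**Figure D4:**
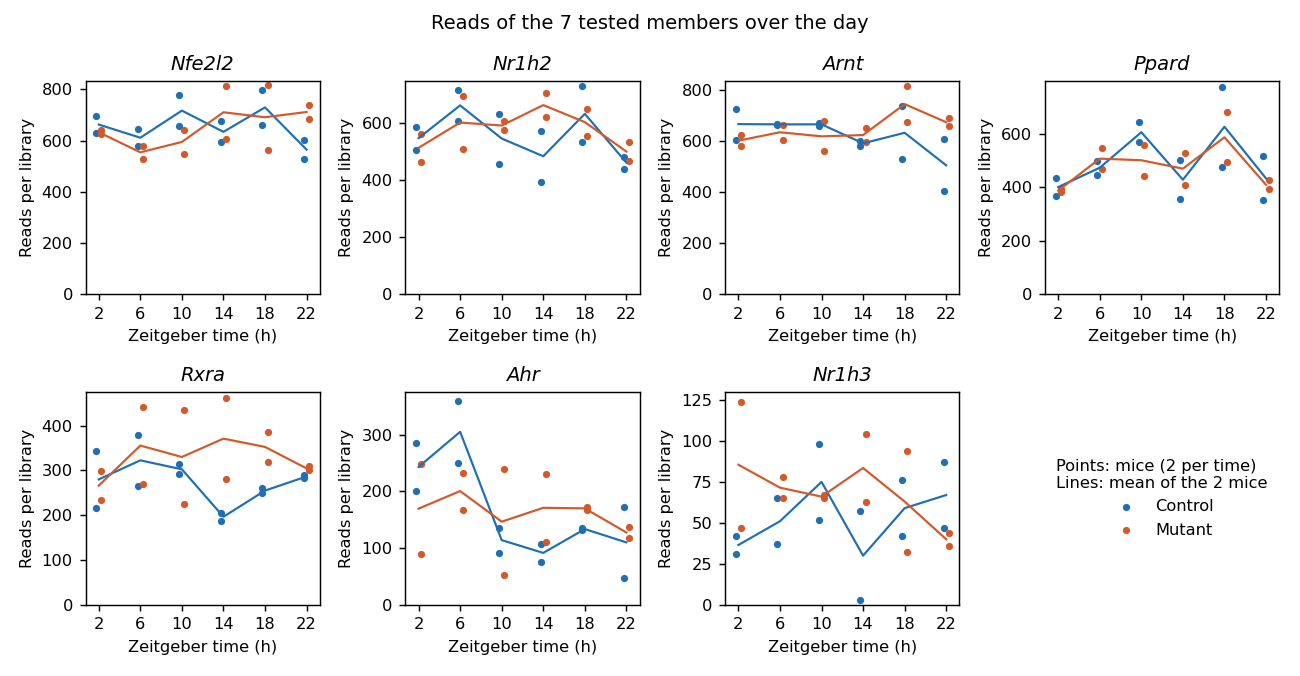
Reads per library of the 7 tested members against zeitgeber time in hours, with 1 point per mouse (2 control and 2 mutant per time) and lines through the means of the 2 mice. The control values of Ahr at ZT2 and ZT6 (201 to 360) lie above all its later control values (47 to 173), and the mutant values overlap.

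Of the 55 tested genes on the lists of partners, targets and pumps, 3 had a meta2d p below 0.05 in controls (against 2.43% of all genes) and 5 in mutants (against 2.27%). At q below 0.6 there was 1 in controls, against 0.31% of all genes, and 0 in mutants. That gene was the efflux pump Abcg2 in controls, where meta2d gave p = 8e-04 (n = 12) against 0.0310 in mutants, while the test of a rhythm difference gave p = 0.439 (edgeR, n = 24). Its q of 0.481 in controls rose above 0.6 when any of 9 of the 12 control mice was left out, among them either ZT2 control, without which no gene was called, and without the filter on low reads. By the edgeR cosinor, control Abcg2 had p = 1.422e-04 (n = 12, adjusted p = 0.08445). The same test in mutants gave an unadjusted p of 0.006511 (n = 12), which did not pass the adjustment. For each genotype the fitted cosine of Abcg2 peaked near ZT13. Among partners, the coactivator Ncoa1 had meta2d p = 0.0145 in controls (n = 12) and 0.801 in mutants (rhythm difference p = 0.0174, adjusted p = 1.00). Among PPAR delta targets, Pdk4, which restrains glucose oxidation, had p = 0.00405 in controls (n = 12) and 0.995 in mutants (rhythm difference p = 0.329). Among AHR targets, Cyp1b1 had p = 0.679 in controls (n = 12) and 0.00494 in mutants (rhythm difference p = 0.271), and among NRF2 targets Gclm had 0.372 and 0.00518 (rhythm difference p = 0.981). The pump Abcc4 had p = 0.0395 (n = 12) and Cpt1a p = 0.0406 in mutants. These 7 genes were named after their values were seen. Of the 9 LXR targets 0 had meta2d p below 0.05 in either genotype, and 0 had an edgeR cosinor p below 0.05.

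Finally, the ZT6 and ZT18 libraries were compared with the other 16, since 16.7% of all genes were called in that contrast. All 8 libraries of the set carried 1 i5 index. Of the others, 4 controls carried it too, and 4 controls and 8 mutants carried the second. The index was not a term in this contrast, and its part was not tested. No member was called (0 of 7 by edgeR, 2 at an unadjusted p below 0.05 against 26.8% of genes, and 0 by DESeq2). The median difference over the 7 members was 0.14 on the log2 scale and -0.01 over all genes. Ppard was at 0.28 ± 0.12 (SE, adjusted p = 0.117), Nr1h2 at 0.22 ± 0.10 (adjusted p = 0.123) and Ahr at 0.48 ± 0.25 (adjusted p = 0.233). Nfe2l2 was at -0.01 ± 0.09 (adjusted p = 0.974), which the scaling alone could turn to 0.03, and Nr1h3 was at 0.03 ± 0.32.

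Target genes, partners and pumps were compared in the same contrast. Of 9 tested LXR targets 6 fell: Scd1 by 1.41, Scd2 by 0.92, Apoe by 0.88, Mylip by 0.79, Abca1 by 0.52 and Abcg1 by 0.38 on the log2 scale (edgeR adjusted p from 3.358e-11 to 0.0239), and 0 rose, against 10.9% of all genes called lower. Scd1 and Scd2 desaturate fatty acids, Mylip marks the LDL receptor for degradation, and Abca1 and Abcg1 export cholesterol. Of 12 NRF2 targets 2 were called, a share equal to the 16.7% of all genes: Me1 fell by 1.12 and Slc7a11, the cystine importer, by 1.05. Of 17 partners 4 were called: Arnt2 fell by 1.65, while Mafk rose by 0.61 and Maff by 1.05, both small partners of NRF2 on DNA, and Hsp90ab1 rose by 0.32. Of 6 PPAR delta targets 1 was called, Cpt1a, which rose by 0.32, and the 1 tested target of PXR, CAR and VDR, Por, rose by 0.28, where 5.85% of all genes were called higher. Neither of the 2 tested AHR targets was called. Of 8 pumps 3 were called: Abcb1a rose by 0.35, Abcb1b fell by 1.04 and Abcc3 fell by 4.43.

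Markers of other cell types moved in the same contrast. All 10 microglial genes (median -3.69), 7 of 8 astrocyte genes (median -1.48), 6 of 6 oligodendrocyte genes (median -1.70), 6 of 6 neuronal genes (median -2.59), 4 of 4 choroid plexus genes (median -1.84) and 5 of 5 red blood cell genes (median -0.63) fell, and 6 of 10 endothelial genes (median 0.34) and 9 of 10 genes of pericytes and smooth muscle (median 0.52) rose. Between genotypes 0 of 5 red blood cell genes passed the adjusted p, and 3 were lower in mutants at an unadjusted p below 0.05 (median -0.34, against 3.18% of all genes). The genes of the cell isolation response were higher too: 6 of 12 rose (median 0.64), and their summed level was 9820 to 13000 RPM (median 11500) against 3390 to 13500 (median 6800). Its part in the differences of Maff, Mafk, Hsp90ab1 and Ppard was not tested, and over the 24 libraries its correlation with Ppard was r = 0.52. No microglial or astrocyte gene was at 0 in any library, while Mog of oligodendrocytes was at 0 in 12. Across the 24 libraries, the summed microglial level had a correlation of r = 0.94 with Scd1, 0.86 with Mylip and 0.76 with Apoe, but of -0.44 with Ahr and Nr1h2, -0.42 with Ppard, -0.30 with Arnt, -0.23 with Rxra, -0.06 with Nr1h3 and 0.01 with Nfe2l2. Some correlations with other marker sums were larger. Ppard had r = -0.67 with choroid plexus, -0.55 with neurons and 0.55 with pericytes and smooth muscle. Ahr had 0.52 with endothelium, and Nr1h2 had -0.50 with astrocytes. Rxra had -0.48 with red blood cells and -0.47 with oligodendrocytes, and Nfe2l2 had 0.43 with red blood cells. Scd1 had 0.96 with astrocytes, and Apoe had 0.82 with astrocytes and -0.82 with endothelium. These are descriptions over libraries that share the same split in makeup, and the part of other cells in the target genes was not tested.

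Correlations among the members themselves were low to moderate. Over the 24 libraries, the 21 pairs of tested members had correlations of log2 normalised reads from r = -0.23 to 0.50, with a median of 0.24, the highest being that of Ahr with Rxra and the lowest that of Arnt with Nr1h3. Among 9896 genes with at least 50 reads on average, the genes most like Ahr were Hspg2 (r = 0.81) and Plpp3 (0.81), and those most like Rxra were Col13a1 (0.71) and Zdhhc5 (0.71). Arnt was nearest to Hey1 (0.70) and Mgat2 (0.67). Nr1h2 was nearest to Ybx3 (0.83) and Ccnd3 (0.76). Nr1h3 was nearest to 9530082P21Rik (0.80) and D11Wsu47e (0.79). Ppard was nearest to Sf3a1 (0.75) and Itpripl2 (0.73). Nfe2l2 had no gene above r = 0.59, its nearest being Psmd6 (0.59) and Apex2 (0.59).

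The members also differed in how much they varied over the 12 mice of a genotype, taken across the 6 time points. Among controls the coefficient of variation was 12.0% for Nfe2l2, 14.7% for Arnt, 19.1% for Nr1h2, 20.4% for Rxra, 25.1% for Ppard, 48.8% for Nr1h3 and 55.7% for Ahr. In mutants the values were 15.1%, 10.3%, 13.8%, 24.8%, 18.7%, 40.9% and 39.3% in the same order. Ahr and Nr1h3, the least abundant tested members, were the most variable in both genotypes, so differences of a given size were least resolved for them. These coefficients include differences between times. Control Ahr had 274 ± 66.89 reads (SD, n = 4) at ZT2 and ZT6 and 112 ± 39.95 (n = 8) at ZT10 to ZT22.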

How the data were processed

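Reads had been aligned to GRCm38 with STAR 2.5.3a and handled with SAMtools 1.3.1 according to the submitters' processing notes and the study's methods, counted on Ensembl genes and resampled by the PORT pipeline. The deposited values were therefore counts, whole reads at similar totals (6136404 to 6648311), and the original depth was not known. From a strand-specific kit (SMARTer Pico), libraries were made from total RNA.

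Genotype, time and replicate number came from the labels. Genes with at least 5 reads in 6 libraries of a genotype were kept (15493). Levels were tested with edgeR 4.0.16 (R 4.3.3, TMM, quasi-likelihood, time as a factor), rhythm differences as genotype by cosine and sine of 24 h, and the ZT6 and ZT18 libraries against the other 16 with genotype as a term. Rhythms were tested per genotype with meta2d, rewritten in R. P-values were adjusted over all genes (Benjamini-Hochberg). DESeq2 1.42.0, other scalings, filters and covariates and leaving out each library were alternatives. Scripts were tested on simulated data, in which the planted rhythms were stronger than the rhythm fitted to any member. No minimum recovery was set for meta2d in that check. The study speaks of 2 independent experiments, but the labels do not say which mouse belonged to which, so experiment was not a term in the fits and p-values measure the spread between mice.

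The members and gene lists were chosen with earlier results of these data known. For the genotype comparison, named list genes were those with an adjusted p below 0.05, otherwise the 2 with the smallest p, and the most abundant one. Abcg1, Rxrb, Arnt2 and Keap1 were also named, outside this rule. For likeness, the 2 genes with the highest r per member were named. Target, marker and cell isolation lists came from general knowledge. Reads per kilobase used exon lengths of GENCODE vM21. Sequences came from RefSeq (GRCm38.p6). Python 3.11.15, pandas 2.3.3, SciPy 1.17.1 and matplotlib 3.10.9 were used for tables and plots.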

Additional observations from a re-analysis of the deposited data

Results flagged for a closer look

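The read counts of the 10 members were looked at within the 4 groups formed by genotype and library set (ZT6 with ZT18, 4 mice, and the other times, 8 mice), and a library is listed here where its gap to the nearest other library was a large part of the range of its group by Dixon's test. Chance flags about 1 group in 20, and 37 groups that held more than one value were looked at. For the near-absent genes a single library with a few reads is enough: Nr1i2 had 22 reads in 1 control at ZT2 and 1 read in 1 control at ZT6 where all others of the group had 0. Nr1i3 had 4 reads in 1 control at ZT18, 1 read in 1 mutant at ZT18 and 1 read in 1 mutant at ZT22, where the others had 0. Vdr had 9 reads in 1 control at ZT10, where the next library had 2, and 3 reads in 1 mutant at ZT14, where the others had 0.

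Among the tested members, Ahr had 233 reads in 1 mutant at ZT6, where the next library of that group had 173. Ppard had 777 reads in 1 control at ZT18, where the next had 500. Rxra had 379 reads in 1 control at ZT6, where the next had 266. Arnt had 403 reads in 1 control at ZT22, where the next had 582.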

How the results depend on the processing

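No member was called for level or rhythm difference with DESeq2, no TMM scaling, no filter, 10 reads in every library, the replicate block, the i5 index as a covariate or each library left out, nor for level without ZT6 and ZT18 or for rhythm difference with the library set as a covariate. Between the library sets none was called with DESeq2, no TMM scaling, 10 reads in every library, the replicate block or each library left out. Nr1h3 was not tested with 10 reads in every library and had no adjusted p for level in DESeq2. In controls 1 member, Ahr, had q below 0.6 (0.375) in the edgeR cosinor with the library set as a covariate, where 508 of 15493 genes did, against 48 with meta2d. Without single libraries the log2 difference of Ahr between genotypes ran from -0.066 to 0.218, that of Ppard from -0.085 to 0.002 and that of Nfe2l2 from -0.045 to 0.021. The latter was 0.055 with the i5 index as a covariate and 0.020 without ZT6 and ZT18. Between the library sets Nr1h3 ran from -0.056 to 0.149 and Nfe2l2 from -0.067 to 0.033 without single libraries, and Nfe2l2 was at 0.032 without TMM. None of these signs was called.

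Counts over all genes moved more. Genes called for level numbered 42, and 99 with DESeq2, 141 without a filter, 7 with the i5 index and 25 to 68 without single libraries, the extremes being without the second and the first mutant of ZT6. Rhythm differences numbered 0, and 1 with DESeq2, the i5 index or the library set, 52 without a filter and 0 to 1 without single libraries. Between library sets 2595 of 15493 were called, and 1624 of the 9863 tested with 10 reads in every library, where fewer genes were tested. Rhythms at q below 0.6 in controls numbered 48, and 133 with the edgeR cosinor, 103 with the cosinor and replicate block, 508 with the cosinor and library set, 19 without a filter and 0 to 82 without single libraries, being 0 without either ZT2 control. In mutants they numbered 6, and 30, 23, 366 and 1 under the same settings, 24 with TMM-scaled values, 43 with 10 reads in every library and 0 to 24 without single libraries. The cause of the other shifts was not tested.

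Replicate numbers did not pair the mice: over 66 pairs of groups the correlation of same-numbered deviations ran from -0.0729 to 0.156 (median 0.0117). With the replicate block 45 genes were called for level, 0 for rhythm difference and 2618 between library sets, and 0 members in each.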
